A study of Mus musculus with 9 samples.

Results

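Vitamin A travels, is stored and is turned into its active form by a small set of proteins, and the messenger RNA of 7 of these genes was followed in mouse liver: Lrat, Rbp4, Retsat, Aldh1a1, Aldh1a2, Rdh11 and Dhrs3. The genes were taken by their symbols from a table of 54532 genes, and each symbol had 1 row. Livers came from male C57BL/6J mice of wild-type genotype, with 3 libraries in each of 3 groups. The first group was fed normal chow and given the vehicle. The second was fed CDAA-HFD, a choline-deficient, amino acid-defined high-fat diet used to produce MASH (metabolic dysfunction-associated steatohepatitis, a fatty liver with inflammation and scarring), and was also given the vehicle. The third was fed CDAA-HFD and given 30 mg/kg of 326E for 6 weeks; the series title describes 326E as an enedioic acid analogue that targets the enzyme ACLY and the receptor PPARα. The groups are called chow, vehicle and 326E below; there were no chow-fed mice given 326E. Sample titles begin with MCD although the growth protocol names CDAA-HFD, and the protocol was followed here. The labels give no ages and do not say that each library came from a separate animal, so the p-values measure the spread between these libraries.

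Liver holds most of the body's vitamin A. Hepatocytes take up retinol, load it onto the carrier protein RBP4 and secrete it, while hepatic stellate cells store it as retinyl esters, which the enzyme LRAT makes from retinol. Retinol can also be oxidised to retinal by dehydrogenases and on to retinoic acid by retinal dehydrogenases, and retinoic acid acts through the nuclear receptors RAR and RXR. Stellate cells lose their retinyl esters when they turn into the collagen-producing myofibroblasts of a scarring liver.

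Values are FPKM, the reads of a gene scaled to its length and to the size of the library, so levels may be compared between genes as well as between libraries. The 9 libraries held 13275888 to 17058316 reads assigned to genes. Differences are given on the log2(FPKM + 1) scale from 1 limma fit over all 9 libraries, with p-values adjusted by the Benjamini-Hochberg method over the 13737 genes that reached 0.5 FPKM in at least 3 libraries, and "called" means an adjusted p under 0.05. Counts of called genes and the differences of the retinoid genes named below were recomputed under 20 alternative settings. These changed the pseudocount, the filter, the scaling or the model, or left libraries out. Aldh1a2 was fitted only in the setting without a filter, and calls of cell type markers were not recomputed. Of the 7 retinoid genes, 6 were tested and Aldh1a2 was too low. Chow replicate 3 and 326E replicate 1 stood apart in carrying pancreatic messenger RNA: Pnlip, a pancreatic lipase, was at 1376 and 109 FPKM there and between 0 and 1.46 in the other 7 libraries. Rbp2, a retinol-binding protein of the intestine, was at 14.8 FPKM in 326E replicate 1 and at 0 in every other library. Calls of retinoid genes named below that are lost or gained without both libraries are given with both values. In bulk liver, fewer cells of a type and less RNA per cell cannot be told apart. As a check of the tissue, the summed level of 10 hepatocyte markers was 47301 to 52450 FPKM in chow, 29170 to 44729 in vehicle and 29152 to 38445 in 326E. Most of each sum was albumin, at 25921 to 34911, 20061 to 32449 and 16456 to 25782 FPKM.

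The promoter sequences of Retsat, Rdh11 and Dhrs3 are shown because these were the genes of the 7 that were called in any comparison. RefSeq (GRCm38.p6) gave promoter windows for all 7 genes, 12 windows in all. Each window is the 250 bases before a transcript start; shown is the longest stretch outside annotated exons, 5′ to 3′ on the gene's strand. The capitals in the second sequence mark the E-box CACGTG.

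Retsat, chr6:72598414-72598474, plus strand: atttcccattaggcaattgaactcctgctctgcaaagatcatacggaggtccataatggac

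Rdh11, chr12:79190962-79191211, minus strand, before the more downstream of its starts and within the annotated span of the gene: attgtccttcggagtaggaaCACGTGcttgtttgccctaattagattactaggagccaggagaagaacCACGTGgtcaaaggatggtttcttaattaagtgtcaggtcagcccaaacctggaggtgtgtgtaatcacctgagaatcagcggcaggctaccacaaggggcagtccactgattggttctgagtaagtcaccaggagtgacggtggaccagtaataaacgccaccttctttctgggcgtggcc

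Dhrs3, chr4:144892577-144892826, plus strand: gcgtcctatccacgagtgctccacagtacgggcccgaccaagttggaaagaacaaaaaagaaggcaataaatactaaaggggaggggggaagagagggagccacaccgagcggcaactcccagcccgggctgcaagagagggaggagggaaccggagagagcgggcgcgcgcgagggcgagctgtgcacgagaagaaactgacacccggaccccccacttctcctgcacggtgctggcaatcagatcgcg

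Each window was searched on both strands for the direct repeats that nuclear receptors such as PPAR, RAR and RXR bind: 2 half-sites with 1, 2 or 5 bases between them, each of them AGGTCA or else AGTTCA or else GGGTCA or else GGTTCA. The sterol response element TCACNCCAC was searched too. None of the 12 windows held any of these (0 matches), and among all 32851 RefSeq windows of this length 0.164%, 0.174% and 0.0883% held the repeats with 1, 2 and 5 bases between and 1.05% held the sterol response element. The palindrome CACGTG, looked for after the sequences had been seen, occurred 2 times in 1 window, the one of Rdh11 shown, and 6.02% of all windows held it. These matches are letters in short windows and say nothing about binding.

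Ranked by level in chow, Rbp4 came first at a mean of 2204 FPKM, followed by Aldh1a1 at 266, Retsat at 68.8, Dhrs3 at 34.8, Rdh11 at 19.5, Lrat at 5.59 and Aldh1a2 at 0.137. No neighbours in this order overlapped in chow. In vehicle, Lrat (7.23 to 12.3 FPKM) and Rdh11 (6.62 to 8.8) overlapped. In 326E, Retsat, at 210 to 272 FPKM, overlapped Aldh1a1, at 221 to 300. The plot of the 7 genes by library shows each on its own axis.

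**Figure D1:**
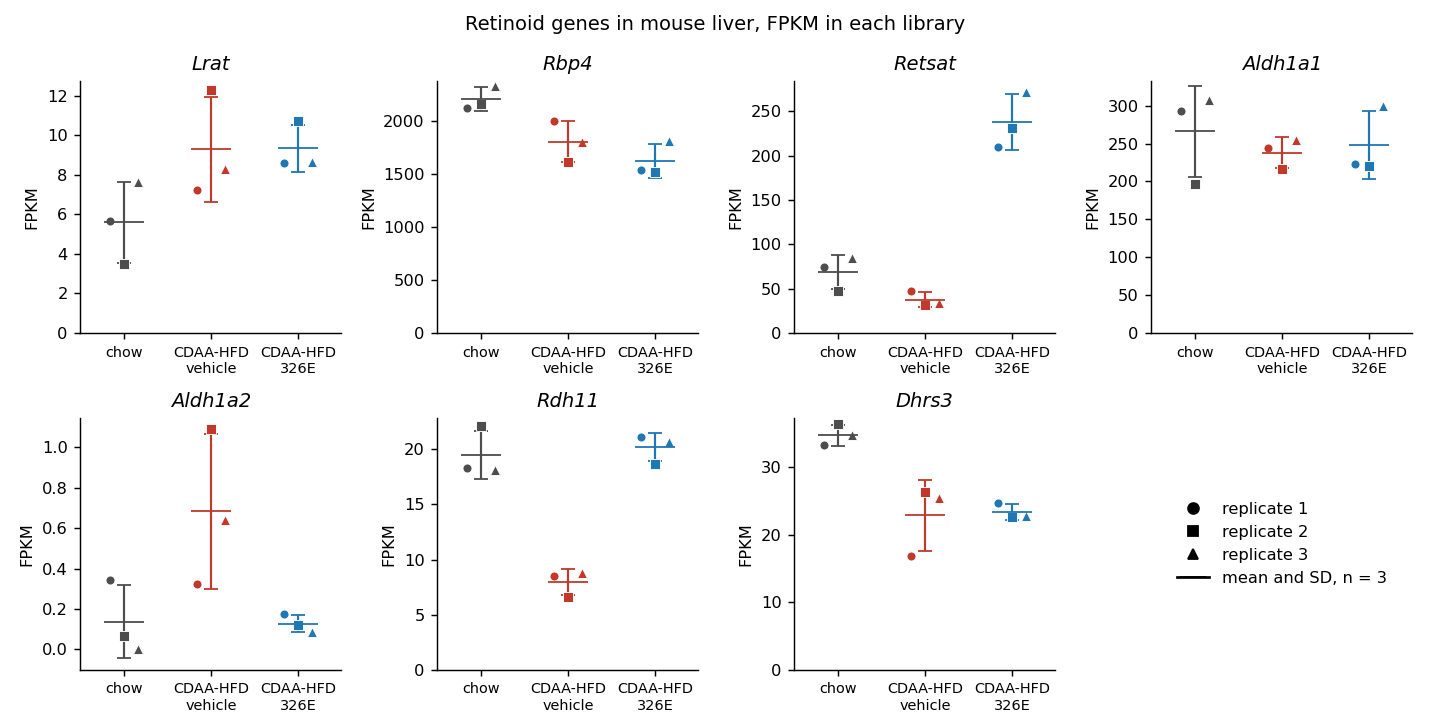
FPKM (y axis) of the 7 retinoid genes in each library of the chow, CDAA-HFD vehicle and CDAA-HFD 326E groups (x axis); circle, square and triangle are replicates 1, 2 and 3, the horizontal line is the mean and the bars are the SD (n = 3). Retsat lies between 210 and 272 in 326E against at most 84.7 in the other groups, and Rdh11 lies between 6.62 and 8.8 in vehicle against at least 18.1 in the others.

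Of the 6 genes tested, 3 fell in vehicle against chow (Retsat, Rdh11 and Dhrs3) and none rose. Over all genes 41.6% were called in this comparison, 20.8% higher and 20.8% lower. In 326E against vehicle, Retsat and Rdh11 rose and none fell, where 11.5% of all genes were called, 4.96% higher and 6.5% lower. In 326E against chow, Retsat was higher and Dhrs3 lower, where 26.8% of all genes were called, 14.4% higher and 12.5% lower. The median difference of the 6 genes was -0.45, 0.05 and -0.02 in these comparisons, beside -0.04, -0.02 and -0.02 over all genes tested. With FPKM rescaled to total assigned reads, 1 of the 6 was called higher (Lrat) and 1 lower (Rdh11) in vehicle against chow, and 3 higher and 0 lower in 326E against chow. Under quantile normalization 2 were higher and 1 lower in vehicle against chow, and 1 higher and 0 lower in 326E against chow. The first 2 comparisons share the vehicle libraries, so a gene low by chance in those libraries would differ in both.

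**Figure D2:**
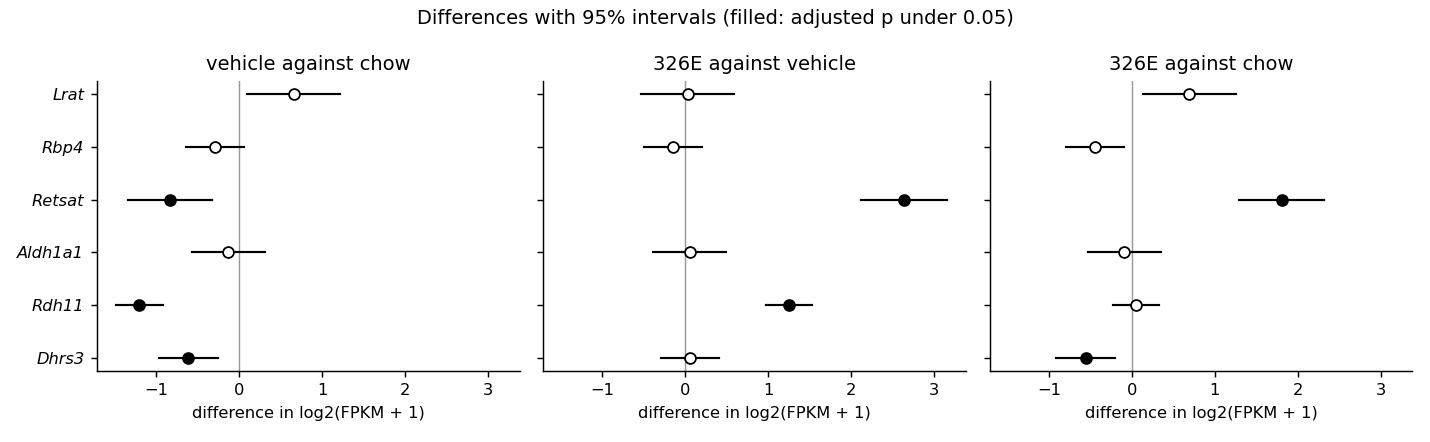
Difference in log2(FPKM + 1) (x axis) of the 6 tested genes (y axis) in the 3 comparisons; bars are 95% intervals from the limma fit, and filled points have an adjusted p under 0.05. Retsat is at -0.83, 2.64 and 1.81, Rdh11 at -1.2, 1.25 and 0.05, and Dhrs3 at -0.61, 0.05 and -0.55.

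Retsat encodes retinol saturase, which adds hydrogen across a double bond of retinol to make dihydroretinol, and is known as a target of PPARγ in fat cells. The gene (ENSMUSG00000056666) lies on chromosome 6 at 72598475-72608425, plus strand (mm10; gene coordinates here and below are those of the deposited table). It stood at 74.2, 47.7 and 84.7 FPKM in the chow libraries, 47.1, 31.7 and 34.3 in vehicle, and 210, 231 and 272 in 326E. All 3 vehicle libraries were below all 3 chow libraries, though the nearest pair, at 47.1 and 47.7 FPKM, almost met, and every 326E library was above every library of the other groups. The means were 68.8 ± 19.1, 37.7 ± 8.2 and 238 ± 31.8 FPKM (SD, n = 3). With 326E, Retsat was 6.3-fold its vehicle mean and 3.45-fold its chow mean. The differences were 2.64 ± 0.23 (SE) against vehicle (95% interval 2.12 to 3.15, adjusted p = 0.000793) and 1.81 ± 0.23 against chow (1.29 to 2.32, adjusted p = 0.000726). Both were called under all 20 alternative settings, at 2.52 to 2.8 and 1.56 to 2.17, and without chow replicate 3 and 326E replicate 1 they were 2.72 and 2.06.

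The fall of Retsat on the diet was smaller and less firm, at -0.83 ± 0.23 (-1.34 to -0.32, adjusted p = 0.0168). It was called in 13 of 20 alternative settings. The call was lost when FPKM was rescaled to total assigned reads (-0.44, adjusted p = 0.118), under quantile normalization (-0.59, adjusted p = 0.0549), and on leaving out any 1 of 4 libraries. These were chow replicates 1 and 3, with adjusted p = 0.0575 and 0.0587, and vehicle replicates 2 and 3, with 0.0567 and 0.0513. Leaving out chow replicate 3 together with 326E replicate 1 gave adjusted p = 0.0717. Hepatocyte markers moved beside this fall and those of Rdh11 and Dhrs3, with 6 of 10 lower and 0 higher in vehicle against chow. Over all genes 20.8% were called lower and 20.8% higher there. The part of hepatocytes in these falls was not tested. In 326E against vehicle 0 of 10 hepatocyte markers were called, beside 11.5% of all genes, and the markers' differences ran from -0.71 to 0.87. Gm45053, a gene on the opposite strand, shares 650 of the 3537 exonic bases of Retsat, and the strand setting of the counting is not given in the sources used here. Gm45053 was at 0.0927 to 0.532 FPKM in the 9 libraries, against 31.7 or more for Retsat.

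Rdh11 and Dhrs3 encode short-chain dehydrogenases that work between retinol and retinal. RDH11 reduces retinal with NADPH and can also oxidise retinol. DHRS3 reduces retinal to retinol and is itself induced by retinoic acid, which lowers the supply for further synthesis.

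Rdh11 (ENSMUSG00000066441, chromosome 12 at 79174337-79192293, minus strand) was at 18.3, 22.1 and 18.1 FPKM in chow, 8.47, 6.62 and 8.8 in vehicle, and 21.1, 18.7 and 20.7 in 326E. The vehicle libraries were lowest without overlap, and the chow and 326E libraries lay in the same range. Means were 19.5 ± 2.21, 7.97 ± 1.18 and 20.2 ± 1.28 FPKM (SD, n = 3). On the diet Rdh11 fell to 0.408 of its chow mean (-1.2 ± 0.12, 95% interval -1.48 to -0.92, adjusted p = 0.00011). With 326E it rose 2.53-fold over vehicle (1.25 ± 0.12, 0.97 to 1.53, adjusted p = 0.00123). Both calls held in all 20 alternative settings, at -1.3 to -0.83 and 0.96 to 1.35. Against chow, the 326E libraries differed by 0.05 ± 0.12 (-0.23 to 0.33, adjusted p = 0.801), which bounds the difference but does not show equal levels. Rescaling to total assigned reads gave 0.40 here (adjusted p = 0.0292), the only setting of the 20 with a call.

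Dhrs3 (ENSMUSG00000066026, chromosome 4 at 144892827-144928209, plus strand) was at 33.3, 36.4 and 34.8 FPKM in chow, 16.9, 26.4 and 25.5 in vehicle, and 24.8, 22.6 and 22.8 in 326E. All chow libraries were above all others, and vehicle and 326E overlapped, with vehicle replicate 1 lowest of the 9. Means were 34.8 ± 1.55, 22.9 ± 5.29 and 23.4 ± 1.2 FPKM (SD, n = 3). Dhrs3 fell on the diet by 0.61 on the log2 scale (SE 0.16, 95% interval -0.96 to -0.25, adjusted p = 0.0127). It did not pass the test between 326E and vehicle (0.05 ± 0.16, -0.3 to 0.4, adjusted p = 0.858), where Rdh11 and Retsat rose. The fall on the diet stayed called without any 1 library (adjusted p = 0.01 to 0.0379) and lost its call under total-read scaling (-0.22, adjusted p = 0.311) and quantile normalization (-0.43, adjusted p = 0.0559). The difference of 326E from chow (-0.55 ± 0.16, -0.91 to -0.2, adjusted p = 0.0281) lost its call in 10 of 20 settings. Those were no filter, both scalings, leaving out any 1 chow or 326E library (adjusted p = 0.0569 to 0.0871), and leaving out chow replicate 3 and 326E replicate 1 together (adjusted p = 0.113).

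Lrat, the gene of the esterifying enzyme, marks retinoid-storing stellate cells in liver. It lies on chromosome 3 at 82892579-82903973, minus strand (ENSMUSG00000028003). Its levels were 5.66, 3.48 and 7.62 FPKM in chow, 7.23, 12.3 and 8.3 in vehicle, and 8.6, 10.7 and 8.67 in 326E. Only chow replicate 3 reached into the vehicle range, and every 326E library was above every chow library. Means were 5.59 ± 2.07, 9.28 ± 2.67 and 9.33 ± 1.21 FPKM (SD, n = 3). The differences were 0.66 ± 0.25 in vehicle against chow (0.1 to 1.22, adjusted p = 0.0589) and 0.69 ± 0.25 in 326E against chow (0.13 to 1.25, adjusted p = 0.0684), neither of them called. Between 326E and vehicle the difference was 0.03 ± 0.25 (-0.53 to 0.59, adjusted p = 0.946).

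Some settings did call Lrat against chow, all of them in the higher direction. In vehicle against chow these were total-read scaling (1.01, adjusted p = 0.0118), voom on whole reads (0.78, adjusted p = 0.0374), and 3 fits with libraries left out. Leaving out chow replicate 3 gave 0.88 (adjusted p = 0.0222), leaving out 326E replicate 1 as well gave 0.88 (adjusted p = 0.0345), and leaving out vehicle replicate 1 gave 0.81 (adjusted p = 0.0488). In 326E against chow they were total-read scaling (1.01, adjusted p = 0.0159), voom (0.82, adjusted p = 0.0432), and the fits lacking chow replicate 3 (0.91, adjusted p = 0.0313) and lacking vehicle replicate 2 (0.69, adjusted p = 0.0493).

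Other stellate cell genes stood beside Lrat as follows. Of 12 stellate cell markers that do not include Lrat, 9 were higher and 0 lower in vehicle against chow (median difference 0.91), where 20.8% of all genes were called higher and 20.8% lower. The summed level of the 12 was 108 to 114 FPKM in chow, 182 to 216 in vehicle and 147 to 183 in 326E. Most of it was Dcn, at 34.4 to 36.3, 100 to 114 and 63.9 to 83.1 FPKM, and Ecm1, at 41.1 to 48.3, 28 to 42.3 and 37.3 to 47.9. In 326E against vehicle, 2 of the 12 fell, Dcn and Hgf, and 0 rose, beside 6.5% and 4.96% of all genes. Vehicle replicate 2, where Lrat was highest, was the highest of the 9 libraries for 7 of the 12 markers. This was not particular to stellate cell markers. That library was also highest for 6 of 8 listed myofibroblast, 4 of 7 mesothelial, 3 of 7 macrophage and 2 of 4 bile duct cell markers. For hepatocyte, endothelial and adipocyte markers the counts were 1 of 10, 1 of 5 and 0 of 5. Of 7 myofibroblast markers tested, 6 rose on the diet and 5 fell with 326E, beside 20.8% and 6.5% of all genes. No test set Lrat against these markers. Col1a1, a collagen chain, was at 0.612 to 1.85 FPKM in chow, 23.1 to 44.4 in vehicle and 13.1 to 17.8 in 326E. The part of stellate cell number in the Lrat level was not tested.

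**Figure D3:**
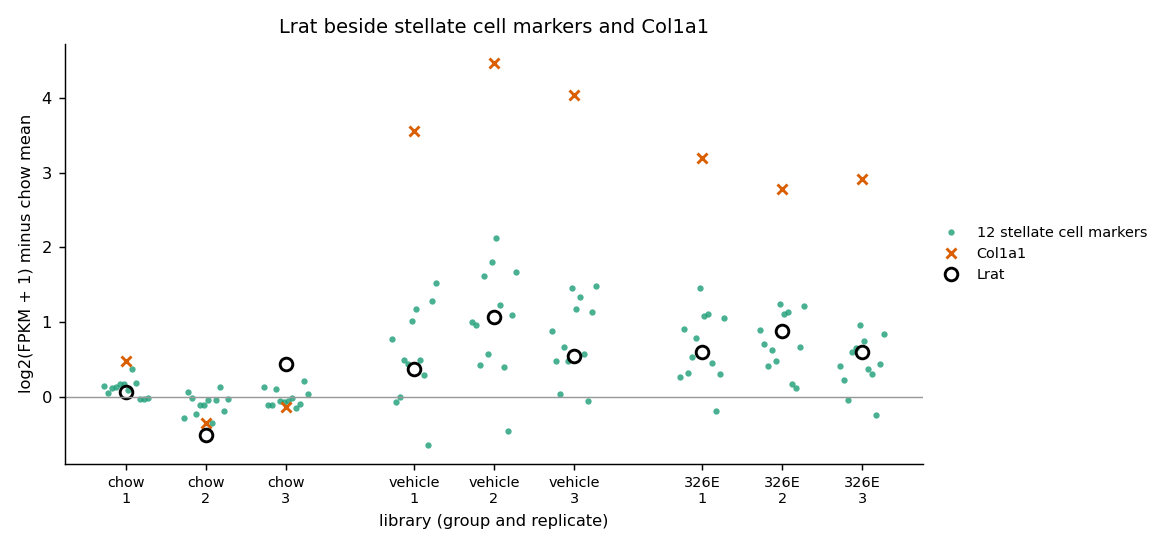
log2(FPKM + 1) minus the chow mean (y axis) of Lrat (open circles), the 12 stellate cell markers (small points, spread sideways) and the collagen gene Col1a1 (crosses) in each library (x axis). The markers' fitted differences run from -0.39 to 1.56 in vehicle against chow, where Lrat is at 0.66, and Col1a1 is 4.02 higher in vehicle and 2.97 higher in 326E than in chow.

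Rbp4 (ENSMUSG00000024990, chromosome 19 at 38116620-38125321, minus strand) encodes the plasma carrier of retinol, which hepatocytes secrete. It was at 2125, 2156 and 2331 FPKM in chow, 1995, 1612 and 1802 in vehicle, and 1533, 1522 and 1812 in 326E. Every chow library was above all 6 CDAA-HFD libraries, and vehicle and 326E overlapped. Means were 2204 ± 111, 1803 ± 192 and 1622 ± 164 FPKM (SD, n = 3), so the vehicle mean was 0.818 and the 326E mean 0.736 of the chow mean. No comparison was called: -0.29 ± 0.15 in vehicle against chow (-0.64 to 0.06, adjusted p = 0.159), -0.15 ± 0.15 in 326E against vehicle (-0.5 to 0.2, adjusted p = 0.565) and -0.45 ± 0.15 in 326E against chow (-0.79 to -0.1, adjusted p = 0.0616). The last was called with a pseudocount of 5 (adjusted p = 0.043), a mean of at least 1 FPKM (0.0496), no variance trend (0.0189) and voom (0.0335). The direction against chow depended on scaling, with 0.1 for vehicle under total-read scaling (adjusted p = 0.536) and 0.72 under quantile normalization (adjusted p = 0.0074).

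Aldh1a1 and Aldh1a2 encode retinal dehydrogenases, which oxidise retinal to retinoic acid irreversibly. Aldh1a1 (ENSMUSG00000053279, chromosome 19 at 20492715-20643462, plus strand) was at 293, 197 and 307 FPKM in chow, 244, 216 and 255 in vehicle, and 223, 221 and 300 in 326E. The 3 groups overlapped, and the lowest and the highest library were both chow. Means were 266 ± 60.1, 238 ± 20.2 and 248 ± 44.6 FPKM (SD, n = 3). The differences were -0.13 ± 0.19 (-0.57 to 0.31, adjusted p = 0.617), 0.05 ± 0.19 (-0.39 to 0.49, adjusted p = 0.9) and -0.09 ± 0.19 (-0.53 to 0.35, adjusted p = 0.779) in the 3 comparisons. Each interval spans 0, and changes within it in either direction could not be told from no change. Quantile normalization turned vehicle against chow to 0.44 (adjusted p = 0.0435). Of the 4934 stretches of 50 bases in Aldh1a1 transcripts, 151 (3.06%) also occur in Aldh1a7, a close paralog, so a small share of reads could belong to either gene. The other 6 genes shared no such stretch with any transcript read in the same direction. Reverse complements were not searched, and Retsat shares bases with Gm45053 on the opposite strand, as given above.

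Aldh1a2 (ENSMUSG00000013584, chromosome 9 at 71215789-71296243, plus strand) was near the limit of detection. It had 10, 2 and 0 reads in chow (0.342, 0.0682 and 0 FPKM), 12, 50 and 25 in vehicle (0.324, 1.09 and 0.641 FPKM), and 7, 5 and 3 in 326E (0.175, 0.122 and 0.0868 FPKM). The 0 reads of chow replicate 3 allow up to 0.121 FPKM as a limit of 3 reads, or 0.148 FPKM by the exact two-sided 95% Poisson interval used below. All 3 vehicle libraries were above all 3 libraries of 326E, and vehicle replicate 1 lay within the chow range. Exact 95% Poisson intervals cover counting error only. They were 0.806 to 1.43 FPKM for vehicle replicate 2, the highest library, 0.415 to 0.946 for vehicle replicate 3 and 0.167 to 0.566 for vehicle replicate 1. The highest 326E library had 0.0704 to 0.361 FPKM, which overlapped the interval of vehicle replicate 1. The difference in mean log2(FPKM + 1) was 0.55 in vehicle against chow (two-sided exact permutation p = 0.2), -0.55 in 326E against vehicle (exact permutation p = 0.1) and 0 to 2 decimals in 326E against chow (exact permutation p = 1). With 3 libraries against 3 the smallest p possible is 0.1, and adjusted over the 3 comparisons these became 0.3, 0.3 and 1. Without the filter on low genes, limma gave adjusted p = 0.0533, 0.129 and 1. Mesothelial cells of the liver's surface also express Aldh1a2, and of their 7 listed markers 3 were tested and 0 were called in any comparison. The shares of all genes called were 41.6%, 11.5% and 26.8% in the 3 comparisons, and 3 markers are too few to be told from these shares. The mesothelial factor Wt1 was at 0.0374 to 0.163 FPKM in chow, 0.335 to 0.656 in vehicle and 0.134 to 0.201 in 326E. Every other marker of the list overlapped between the groups in each comparison. The summed level of the list was 1.6 to 7.12 FPKM in chow, 2.74 to 22.2 in vehicle and 2.75 to 6.35 in 326E. Most of the highest sums was Krt19, a keratin that bile duct cells also express, at 19.1 FPKM in vehicle replicate 3, 7.32 in vehicle replicate 2 and 5.3 in chow replicate 1. Without Krt19 the other 6 markers summed to 1.27 to 2.53 FPKM in chow, 1.55 to 3.94 in vehicle and 1.26 to 2.06 in 326E. Their part in the Aldh1a2 level was not tested.

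The rest of the vitamin A pathway was followed through a list of 60 other genes, of which 59 had a row and 44 were tested. In vehicle against chow 9 of the 44 rose and 15 fell (median -0.21), where 20.8% of all genes were called in each direction. In 326E against vehicle 4 rose and 4 fell (median 0.14), beside 4.96% and 6.5% of all genes. In 326E against chow 7 were higher and 16 lower (median 0.01), beside 14.4% and 12.5%. The counts by role that follow are to be read against these shares. Without the 2 libraries that carried pancreatic messenger RNA, 11 rather than 23 genes were called in the last comparison. Calls over all genes tested dropped there as well, from 3688 to 1770. Rescaled to total assigned reads, under which the median difference over all genes in vehicle against chow is 0.25 in place of -0.04, 14 of the 44 rose and 9 fell there, and the same counts were found in 326E against chow.

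**Figure D4:**
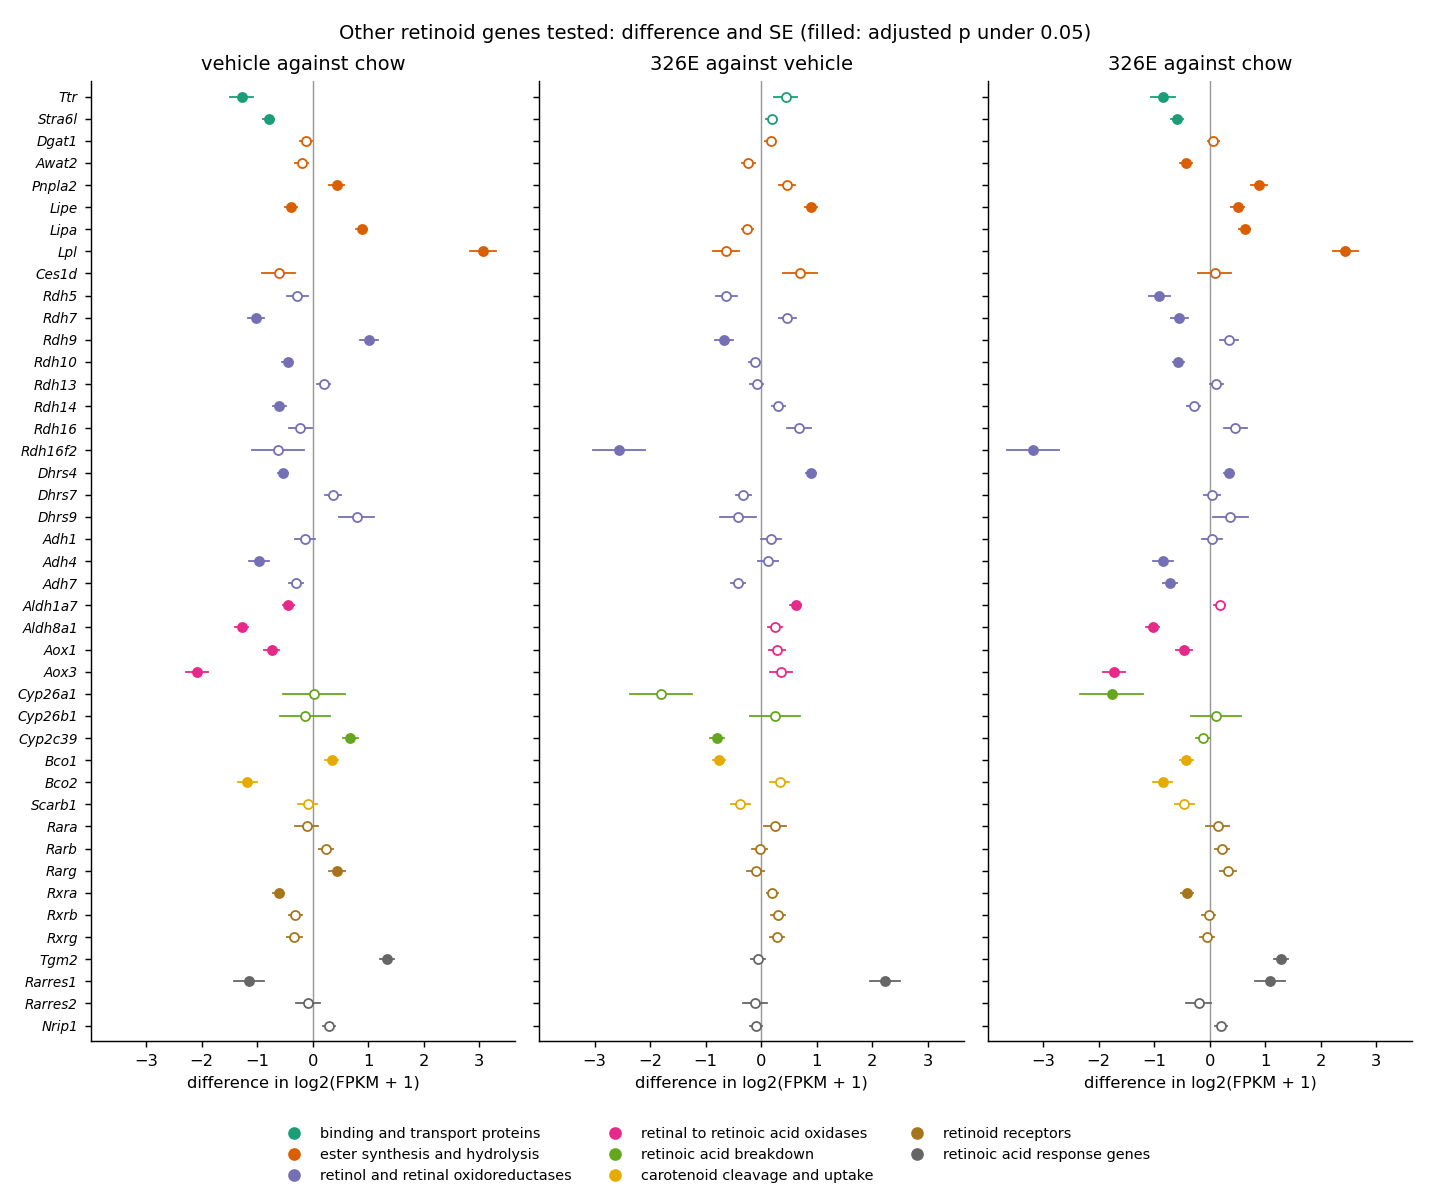
Difference in log2(FPKM + 1) (x axis) of 43 of the other retinoid genes tested (y axis), coloured by role, in the 3 comparisons; bars are SE from the limma fit and filled points have an adjusted p under 0.05. In 326E against vehicle the filled points are Lipe, Dhrs4, Aldh1a7 and Rarres1 on the right and Rdh9, Rdh16f2, Cyp2c39 and Bco1 on the left.

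Among binding and transport proteins, next to Rbp4, 2 of 3 tested genes fell on the diet. Ttr, the plasma protein that carries RBP4 with its retinol and is also one of the hepatocyte markers, fell from 4062 ± 111 to 1709 ± 407 FPKM (-1.28 ± 0.21, adjusted p = 0.0013) and was at 2290 ± 344 with 326E (0.44 against vehicle, adjusted p = 0.207). All 3 vehicle and all 3 326E libraries were below all chow libraries for Ttr, as they were for Rbp4. Its fall on the diet lost the call under quantile normalization alone (-0.32, adjusted p = 0.175). Stra6l, a cell-surface receptor for RBP4 in liver, fell from 21.3 ± 0.997 to 12 ± 0.968 FPKM (-0.79 ± 0.1, adjusted p = 0.000278).

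Of 7 genes for making and splitting retinyl esters, beside Lrat, 3 rose and 1 fell on the diet, where 41.6% of all genes were called. Macrophage markers moved in the same comparisons: 5 of 7 rose on the diet and 4 of 7 fell with 326E, beside 20.8% and 6.5% of all genes. Their summed levels were 180 to 194 FPKM in chow, 930 to 1420 in vehicle and 514 to 893 in 326E. A large part was Lyz2, at 78.1 to 86.6, 639 to 1085 and 350 to 677 FPKM. The part of macrophages in the lipase levels was not tested. Lpl, lipoprotein lipase, which can split retinyl esters of lipoproteins, rose from 4.72 ± 0.922 to 46.5 ± 2.81 FPKM (3.07 ± 0.23, adjusted p = 2.01e-05) and was at 30.9 ± 10.3 with 326E. Lipa, the lysosomal lipase, rose from 83.3 ± 2.11 to 155 ± 15.6 FPKM (0.88 ± 0.1, adjusted p = 0.000204). Pnpla2, the lipid droplet lipase ATGL, was at 41.5 ± 7.57, 55.9 ± 6.83 and 77.1 ± 0.566 FPKM in chow, vehicle and 326E, and its call in vehicle against chow (0.43, adjusted p = 0.0352) was lost in 9 of 20 settings, among them the one without chow replicate 3 and 326E replicate 1 (0.4, adjusted p = 0.123). Lipe, the hormone-sensitive lipase, which also hydrolyses retinyl esters, went the way of Retsat: it fell from 2.25 ± 0.304 to 1.48 ± 0.204 FPKM on the diet (-0.39 ± 0.11, adjusted p = 0.0185) and rose to 3.59 ± 0.316 with 326E (0.89 ± 0.11, adjusted p = 0.00249). Its fall on the diet lost the call in 5 of 20 settings, one of them without those 2 libraries (-0.36, adjusted p = 0.0698), and its rise with 326E in none.

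Among 14 other oxidoreductases of retinol and retinal, 1 rose and 5 fell on the diet, near the share of all genes called (41.6%), and 1 rose and 2 fell with 326E. Dhrs4, a retinal reductase of peroxisomes, fell and rose in the same comparisons as Rdh11: 56.1 ± 3.92 FPKM in chow, 38.1 ± 2.08 in vehicle and 71.7 ± 3.22 in 326E. Unlike Rdh11, Dhrs4 was also called higher in 326E than in chow (0.35 ± 0.09, adjusted p = 0.0236). That call was lost in 6 of 20 settings, one of them without chow replicate 3 and 326E replicate 1 (0.4, adjusted p = 0.0786). Dhrs4 fell by 0.54 on the diet (SE 0.09, adjusted p = 0.00175) and rose by 0.89 with 326E against vehicle (SE 0.09, adjusted p = 0.00151). Its fall on the diet lost the call under total-read scaling (-0.15, adjusted p = 0.185). Rdh16f2, a member of the retinol dehydrogenase 16 family, moved against Retsat and Rdh11 with 326E. It was at 61.7, 107 and 62.5 FPKM in chow, 56.8, 27.8 and 69.6 in vehicle, and 6.22, 3.85 and 15.4 in 326E, and every 326E library was below every other one. It fell by 2.56 with 326E against vehicle (SE 0.47, adjusted p = 0.012), a call lost without chow replicate 3 and 326E replicate 1 together (-2.46, adjusted p = 0.059). Rdh7, a retinol dehydrogenase, fell from 579 ± 22.7 to 288 ± 46.2 FPKM on the diet (-1.02 ± 0.15, adjusted p = 0.000719), and Adh4, an alcohol dehydrogenase that also oxidises retinol, fell from 101 ± 5.71 to 52.5 ± 13.5 (-0.96 ± 0.18, adjusted p = 0.00254). The fall of Rdh7 lost its call under quantile normalization (-0.32, adjusted p = 0.0554). Rdh9 rose from 1.99 ± 0.231 to 5.15 ± 1.42 FPKM on the diet and was at 2.81 ± 0.352 with 326E, where its fall (-0.67, adjusted p = 0.0324) lost the call in 10 of 20 settings, one of them without chow replicate 3 and 326E replicate 1 (-0.61, adjusted p = 0.124). Rdh5 was called in 326E against chow only, at 2.11 ± 0.528 against 4.9 ± 1.38 FPKM (-0.91 ± 0.19, adjusted p = 0.00757).

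Beside Aldh1a1 and Aldh1a2, all 4 tested genes listed under the role of retinal oxidases fell on the diet. The activity of each on retinal was not examined here. The aldehyde oxidase gene Aox3 fell from 150 ± 38.3 to 34.5 ± 7.08 FPKM (-2.08 ± 0.2, adjusted p = 8.07e-05), Aldh8a1 from 88.6 ± 0.437 to 36 ± 3.35 (-1.28 ± 0.12, adjusted p = 7.33e-05) and Aox1 from 11.5 ± 1.81 to 6.48 ± 1.23 (-0.74 ± 0.14, adjusted p = 0.00337). With 326E these 3 were at 43.6, 43.3 and 7.98 FPKM and were not called against vehicle. Aldh1a7, the paralog of Aldh1a1, was at 112, 118 and 121 FPKM in chow, 91.2, 81.9 and 84.6 in vehicle, and 137, 122 and 139 in 326E. The vehicle libraries were lowest and the 326E libraries highest without overlap. Aldh1a7 rose with 326E (0.62 ± 0.1, adjusted p = 0.00657) in all 20 settings, whereas its fall on the diet (-0.44 ± 0.1, adjusted p = 0.00662) was not called under total-read scaling (-0.05) or quantile normalization (-0.07).

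Genes that break down retinoic acid or split carotenoids gave mixed results. Cyp26a1, the main retinoic acid hydroxylase of liver and itself induced by retinoic acid, varied within groups: 1.97, 7.23 and 10.5 FPKM in chow, 4.96, 2.64 and 12.9 in vehicle, and 0.606, 0.874 and 1.33 in 326E. All 326E libraries were below all others. The difference from vehicle was not called (-1.81 ± 0.56, adjusted p = 0.0689), though it was in 4 of 20 settings, and the difference from chow was (-1.77 ± 0.56, adjusted p = 0.0436), though not in 10 of 20. Without chow replicate 3 and 326E replicate 1 the difference from chow was -1.24 (adjusted p = 0.262). Cyp2c39 rose from 0.802 ± 0.184 to 1.89 ± 0.353 FPKM on the diet (0.68 ± 0.13, adjusted p = 0.00249) and fell to 0.659 ± 0.118 with 326E (-0.8 ± 0.13, adjusted p = 0.0064). These values rest on few reads, 15 to 20 in chow, 55 to 67 in vehicle and 17 to 25 in 326E. Sequence that Cyp2c39 shares with other genes was not checked. Bco1, which cleaves beta-carotene into retinal, was at 3.42 ± 0.232, 4.62 ± 0.434 and 2.32 ± 0.391 FPKM and fell with 326E against vehicle (-0.76 ± 0.11, adjusted p = 0.00466). Its rise on the diet (0.34, adjusted p = 0.031) lost the call in 9 of 20 settings, one of them without those libraries (0.37, adjusted p = 0.0706). Bco2, the mitochondrial carotenoid oxygenase, fell on the diet from 9.35 ± 0.966 to 3.62 ± 1.07 FPKM (-1.18 ± 0.17, adjusted p = 0.000555).

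Of the 6 receptor genes, Rxra, the main RXR of hepatocytes, fell from 101 ± 1.37 to 65.9 ± 6.67 FPKM on the diet (-0.61 ± 0.1, adjusted p = 0.00143), a call lost under total-read scaling (-0.21, adjusted p = 0.107) and quantile normalization (-0.27, adjusted p = 0.0517). Rara was at 3.58 ± 1.03, 3.19 ± 0.471 and 4.04 ± 0.963 FPKM and was not called in any comparison. Rarg, at 1.28 ± 0.331 in chow and 2.08 ± 0.492 in vehicle, was called (0.44, adjusted p = 0.0476) but not in 15 of 20 settings, one of them without chow replicate 3 and 326E replicate 1 (0.31, adjusted p = 0.177). None of the 6 receptor genes was called in 326E against vehicle.

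Of 4 tested genes known to respond to retinoic acid, 1 rose and 1 fell on the diet. Rarres1, named for its response to retinoic acid, was at 101, 88 and 168 FPKM in chow, 38.8, 61.7 and 55 in vehicle, and 290, 196 and 250 in 326E. As with Retsat, no group overlapped another. Rarres1 fell by 1.15 on the diet (SE 0.27, adjusted p = 0.00783) and rose by 2.23 with 326E (SE 0.27, adjusted p = 0.00238), both in all 20 settings. Tgm2, a transglutaminase, rose from 17.8 ± 0.872 to 46.8 ± 6.86 FPKM on the diet (1.34 ± 0.12, adjusted p = 6.16e-05) and was at 44.8 ± 4.68 with 326E (-0.06, adjusted p = 0.8). In 326E against vehicle Rarres1 was the only one of the 4 that was called.

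For each gene, the 2 tested genes whose log2(FPKM + 1) ran most alike over the 9 libraries were named, by Pearson's r; these coefficients describe libraries that share 3 groups, and they carry no test. Retsat ran closest to Eci1, an isomerase of mitochondrial fatty acid oxidation (r = 0.988), whose means were 94, 70.3 and 160 FPKM in chow, vehicle and 326E, and next to 1700080G11Rik (0.979). Rdh11 ran closest to H2-Q10, a class I histocompatibility gene of liver (r = 0.991; 457, 244 and 474 FPKM), and Cyp4f15, a cytochrome P450 (0.99; 64.6, 33.2 and 65.6 FPKM). Lrat ran closest to Ralgapb (0.982) and Tgfbr2, a receptor of TGF-beta (0.975; 9.23, 11.4 and 11.3 FPKM). Rbp4 ran closest to Agmat (0.977) and Sdhb, a subunit of succinate dehydrogenase (0.974), Aldh1a1 to Rint1 (0.967) and Tfg (0.945), and Dhrs3 to Eif3l (0.98) and Morf4l1 (0.962). Aldh1a2, from few reads, ran closest to Sftpd (0.968) and Mmp7 (0.944), both highest on average in vehicle. Among the 7 genes themselves, Retsat and Rdh11 had r = 0.72, Lrat and Rbp4 r = -0.71, and Rdh11 and Aldh1a2 r = -0.86.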

How the data were processed

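The members and all gene lists were chosen with earlier results of these data known. Poly(A) RNA from liver was sequenced in 9 libraries. The submitters' processing notes name HISAT2, featureCounts and the build mm10; versions, annotation and strand setting are not given in the sources used here. The authors deposited FPKM per gene with gene lengths. FPKM times length gave whole reads for 100% of values (within 0.01), with library sizes 0.828 to 1.192 times the assigned reads that match median-of-ratios scaling. A gene of 2 kb at 3 reads stood at 0.0738 to 0.137 FPKM.

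limma 3.58.1 (R 4.3.3) was fitted once to log2(FPKM + 1) of the 9 libraries, with the group as the only term and a trend of the variance with the level. Genes needed 0.5 FPKM in 3 libraries. The fit was tested on simulated data with known changes. Few genes changed there and all shared the same setting for their spread, unlike these data, so that test does not show how the fit behaves here. Aldh1a2 was compared by exact permutation tests (scipy 1.17.1). Named other genes were, per role and comparison, up to 3 called ones with the largest change and a group mean of 1 FPKM or more, plus Rara, Rxra and Cyp26a1; 1 gene that the rule named is not reported here. Markers of pancreas and intestine and Gm45053 were added after values were seen; Krt19, Wt1 and Col1a1 were likewise named after their values were seen. Alternatives were 2 pseudocounts, 2 filters, 2 scalings, no variance trend, only the compared libraries, voom on whole reads, a replicate block, each library left out, and, chosen after seeing the data, chow replicate 3 and 326E replicate 1 left out together.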

Additional observations from a re-analysis of the deposited data

How the results depend on the processing

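The 20 alternative settings gave 2 to 4 called members in vehicle against chow (3 as reported) and 2 in every setting in 326E against vehicle. In 326E against chow, 2 as reported, the count was 1 without a filter, 1 under quantile normalization, 4 with voom, 1 without chow replicate 3 and 326E replicate 1 together, and 1 to 3 when 1 library was left out. The other retinoid genes called there, 23 as reported, were 11 without those 2 libraries and 15 to 23 with 1 library left out, lowest without 326E replicate 2. Calls over all genes there were 3688 as reported and 1770 without those 2 libraries. Quantile normalization turned the sign of Rbp4 (0.72) and Aldh1a1 (0.44) in vehicle against chow and of Rdh7 in 326E against chow (0.06); the cause was not tested. Total-read scaling raised the share of higher calls over all genes in vehicle against chow from 50% to 84.1% and in 326E against chow from 53.5% to 86.9%. All genes called in 326E against vehicle were 1574 as reported, 805 without those 2 libraries and 659 to 1623 with 1 left out. Same-numbered libraries did not deviate together (r -0.244 to 0.024). With 3 libraries in each group this cannot exclude a pairing by number. With a replicate block the called members were 3, 2 and 2 in the 3 comparisons and the other retinoid genes 21, 8 and 22. Where 1 library was left out, its group's other 2 were assumed to vary like the rest. Depth limits Aldh1a2, whose values rest on 0 to 50 reads.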
